A study of Mus musculus with 4 samples.

Results

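The genes described here encode the subunits of the proteasome and of its immunoproteasome form, together with the activators and the inhibitor that dock on it. They include 3 genes for factors of its assembly. They were taken by name, as every gene whose symbol begins with Psma, Psmb, Psmc, Psmd, Psme or Psmf followed only by a number, which gave 44 of 31053 genes in the tables. The naming rule used no measured value, but the members were chosen with earlier results of these data known. They were read in single-cell RNA libraries of red cell-depleted bone marrow from femur and tibia of mice aged 12 months, with 1 library per genotype. DKO marrow lacked mDia1 and miR-146a (IL6+/+, mDia1-/-, miR146a-/-), TKO marrow lacked IL-6 as well (IL6-/-, mDia1-/-, miR146a-/-), IL-6 KO marrow lacked only IL-6 (IL6-/-, mDia1+/+, miR146a+/+), and TWT marrow was wild type at all 3 loci; the background was C57/B6 throughout. mDia1 is an actin-nucleating formin encoded by Diaph1, miR-146a is a microRNA that restrains innate immune signaling, and the DKO mouse is a model of myelodysplastic syndrome that advances to leukemia with age. The alleles were constitutive knockouts, present in every cell type, and the sources do not state from how many mice a library was made.

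The proteasome is a barrel-shaped protease that unfolds and cuts proteins tagged with ubiquitin. Its 20S core is built of rings of alpha subunits, which gate the entrance, and rings of beta subunits, of which Psmb5, Psmb6 and Psmb7 carry the cutting sites in most tissues. In cells of the immune system, and in others exposed to interferon-gamma, newly made cores take up Psmb8, Psmb9 and Psmb10 in their place. This immunoproteasome is known for making peptides suited to MHC class I. The 19S cap recognizes and unfolds the tagged protein. It is made of a base (the Psmc ATPases with Psmd1, Psmd2 and Psmd4) and a lid (most other Psmd genes). Psmd5, Psmd9 and Psmd10 encode assembly factors of the cap and are counted among the 44 genes. The PA28 activators (Psme1 and Psme2, or Psme3) and PA200 (Psme4) dock on the core in place of the cap.

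The proximal promoters of some of the catalytic and activator genes on which the results turn are shown because the exchange of subunits is known as a transcriptional response. Each window runs from 250 bases before to 50 bases from the start of the RefSeq gene, read 5′ to 3′ on the strand of the gene (build GRCm38.p6). Psmb8 lies at chr17:34197945-34198244 on the plus strand, Psmb9 at chr17:34187281-34187580 on the minus strand, Psme1 at chr14:55578244-55578543 on the plus strand, Psmb5 at chr14:54617946-54618245 on the minus strand and Psmb6 at chr11:70525107-70525406 on the plus strand. Capitals mark matches, on either strand, to the interferon-stimulated response element core (Psme1), the NF-Y box CCAAT (Psmb9) and the antioxidant response element core TGACNNNGC (Psmb5 and Psmb6). The window of Psmb8 held none of these letters and is shown as the promoter of the most abundant immune catalytic gene.
Psmb8: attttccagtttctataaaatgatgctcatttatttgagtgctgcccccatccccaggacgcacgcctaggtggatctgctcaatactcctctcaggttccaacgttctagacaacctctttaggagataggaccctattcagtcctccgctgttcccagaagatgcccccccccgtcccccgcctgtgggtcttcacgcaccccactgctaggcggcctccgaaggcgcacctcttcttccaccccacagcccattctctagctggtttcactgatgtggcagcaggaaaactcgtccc
Psmb9: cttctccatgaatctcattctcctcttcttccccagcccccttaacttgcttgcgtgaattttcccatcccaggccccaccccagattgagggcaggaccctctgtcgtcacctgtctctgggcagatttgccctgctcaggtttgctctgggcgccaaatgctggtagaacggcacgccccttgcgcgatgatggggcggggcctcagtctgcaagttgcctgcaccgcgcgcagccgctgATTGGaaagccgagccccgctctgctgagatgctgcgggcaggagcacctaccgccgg
Psme1: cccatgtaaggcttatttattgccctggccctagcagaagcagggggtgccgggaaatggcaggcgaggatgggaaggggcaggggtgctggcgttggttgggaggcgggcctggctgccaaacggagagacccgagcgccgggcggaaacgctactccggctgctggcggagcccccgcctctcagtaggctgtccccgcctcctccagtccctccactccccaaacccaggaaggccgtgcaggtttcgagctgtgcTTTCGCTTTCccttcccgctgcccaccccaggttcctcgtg
Psmb5: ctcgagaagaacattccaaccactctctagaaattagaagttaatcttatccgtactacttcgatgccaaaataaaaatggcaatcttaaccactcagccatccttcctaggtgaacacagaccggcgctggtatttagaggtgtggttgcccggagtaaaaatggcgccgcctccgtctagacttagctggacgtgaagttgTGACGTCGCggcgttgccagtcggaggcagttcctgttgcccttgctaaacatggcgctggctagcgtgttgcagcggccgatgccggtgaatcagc
Psmb6: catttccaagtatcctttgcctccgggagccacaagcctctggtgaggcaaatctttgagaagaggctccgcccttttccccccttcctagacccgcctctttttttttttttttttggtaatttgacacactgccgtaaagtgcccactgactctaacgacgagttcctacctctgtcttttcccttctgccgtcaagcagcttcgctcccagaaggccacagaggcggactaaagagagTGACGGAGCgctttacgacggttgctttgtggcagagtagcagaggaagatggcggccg
The response element core of Psme1 lay within the transcript, at bases 10 to 19. The antioxidant matches lay 47 to 39 bases before the start of Psmb5 and 9 to 1 bases before that of Psmb6. The CCAAT match of Psmb9 was on the opposite strand, 8 to 4 bases before the start, and 275 bases of its window were shared with that of Tap1, the peptide transporter gene that runs the other way (chr17:34187306-34187605, plus strand).

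Across the 40 windows of the 37 genes that matched the RefSeq table, the 3 patterns were about as common as elsewhere or differed by a few windows. The interferon-stimulated response element core was in 4 windows (10%: Psmb3, Psmd4, Psmd9 and Psme1), against 3.44% of 32851 windows of all genes. CCAAT was in 14 windows (35%), against 37.4% of all. The antioxidant core was in 6 windows (15%: Psmb5, Psmb6, Psmc6, Psmd12, Psmd9 and Psme4), against 12.4% of all. Psmb7, Psmb10 and Psme2, which are not shown above, were not among the genes with a match to any of the 3 patterns. A match is a description of these letters only.

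The libraries held 10866 barcodes for DKO, 9013 for TKO, 8640 for IL-6 KO and 8423 for TWT, and between 61292684 and 85145074 unique molecular identifiers (UMIs, each counting 1 captured RNA molecule). A barcode was retained as a cell when 500 to 4000 genes were detected in it and mitochondrial genes made up no more than 15% of its UMIs, which left 9627 DKO, 7560 TKO, 7476 IL-6 KO and 6794 TWT cells. The kept DKO cells were deeper, with a median of 7053 UMIs, against 4762 in TKO, 4795 in IL-6 KO and 4585.5 in TWT cells. Diaph1, the mDia1 gene, stood at 11.4 CPM (counts of a gene scaled to a total of 1e+06 UMIs) in DKO and 12.4 CPM in TKO, against 178 CPM in IL-6 KO and 163 CPM in TWT, as the labels state. Il6 had 20 UMIs in DKO, 587 in TKO, 606 in IL-6 KO and 52 in TWT, so that the libraries labelled IL6-/- had the most; a 3′ tag does not read the deleted part and does not check the knockout. The IL-6 KO library also differed in sex from the others by Xist (800 CPM, against at most 0.109 CPM elsewhere), which cannot be told apart from its genotype. Between 0.77% and 0.86% of the barcodes of a library recurred in another library.

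Cells were placed in classes by panels of marker genes, at least 3 markers of the leading panel being required, and each class is named after its panel as "-like"; 8.10% to 12.8% of cells stayed unassigned. In every class but the plasma cell-like one, at least 3 of the 10 leading genes were markers of its own panel. The gate itself favors this, so it does not check the class names. Levels are CPM of the UMIs summed over the cells of a class. Because each molecule gives 1 UMI whatever its length, levels were set side by side between genes without a length correction. Whether genes are captured equally well was not tested. Since a genotype had a single library, genotypes were compared without any test and no p-value is given. The 95% intervals (exact Poisson for levels and ratios, Clopper-Pearson for shares) cover counting error only, not the spread between mice.

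All 44 genes had at least 1 UMI. Psma7, an alpha-ring subunit, was the most abundant, with 444 CPM in DKO, 321 CPM in TKO, 255 CPM in IL-6 KO and 295 CPM in TWT over all kept cells. Psmb3, a structural beta subunit, had 366, 262, 200.2 and 235 CPM in DKO, TKO, IL-6 KO and TWT. Psma2, another subunit of the alpha ring, had 338, 253, 207 and 233 CPM in the same order. The 3 genes led in every library. Psma8, the alpha subunit of the testis, was below 1 CPM in every library (0.69 in DKO, 0.64 in TKO, 0.55 in IL-6 KO and 0.37 in TWT), and Psmb11, the catalytic subunit of the thymic cortex, had 1, 1, 1 and 0 UMIs. The marrow thus carried transcripts of the general and the immune form, and next to none of the testis and thymus forms.

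The share of immunoproteasome subunits depended first on the cell class. It is given here as the UMIs of Psmb8, Psmb9 and Psmb10 over those of all 6 catalytic genes, a ratio within the same cells that does not depend on the CPM total. In TWT marrow it was 75.9% in T cell-like, 73.2% in NK-like, 70.9% in plasmacytoid dendritic cell-like, 67.3% in B cell-like, 61.2% in mature neutrophil-like, 57.9% in monocyte-like, 48.7% in pro/pre-B cell-like, 39.9% in granulocyte-monocyte progenitor-like, 39.7% in immature neutrophil-like and 8.35% in erythroid cell-like cells. Among TWT classes left out of this order, plasma cell-like cells had 60.8%, from 1315 immune and 849 constitutive UMIs. The others had 73.5% (conventional dendritic cell-like, 9 cells), 68.5% (non-classical monocyte-like, 28 cells) and 56.9% (basophil and mast cell-like). Last came 55.5% (stem and progenitor-like, 49 cells), 55.1% (macrophage-like, 26 cells) and 41.2% (stromal, 15 cells). Erythroid cell-like cells stood apart as the class with the least of the immune form, and granulocyte-monocyte progenitor-like and immature neutrophil-like cells had more of the general than of the immune form. Pro/pre-B cell-like cells had an interval that spans an even split (45.6% to 51.9%). Neighbors in this order had overlapping intervals from T through NK and plasmacytoid dendritic to B cell-like cells (73.6% to 78.1%, 68.7% to 77.5%, 68.3% to 73.3% and 65.2% to 69.3%). They also overlapped for mature neutrophil-like and monocyte-like cells (58.8% to 63.6% and 56.8% to 59.0%) and for granulocyte-monocyte progenitor-like and immature neutrophil-like cells (38.1% to 41.7% and 38.6% to 40.8%).

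**Figure D1:**
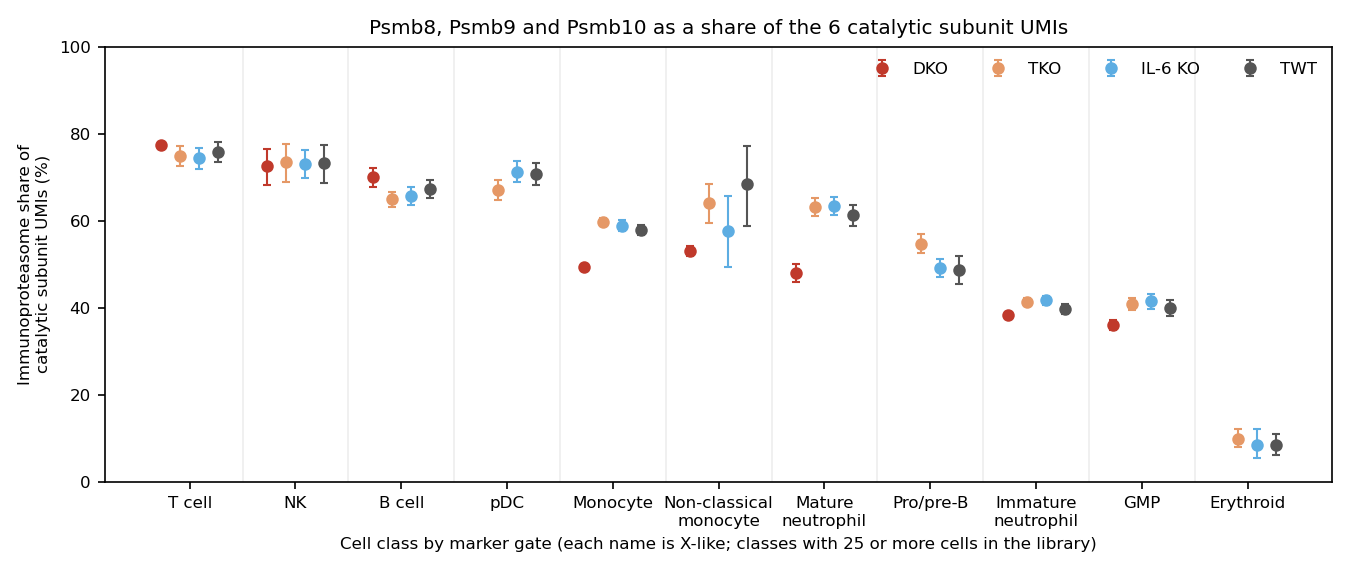
Share of Psmb8, Psmb9 and Psmb10 among the UMIs of the 6 catalytic subunit genes (y axis, percent) in marker-gated classes with 25 or more cells in the library (x axis), for DKO, TKO, IL-6 KO and TWT from left to right; bars are Clopper-Pearson 95% intervals. In mature neutrophil-like cells DKO sits at 48.1%, below the 61.2% to 63.4% of the other libraries, and in T cell-like cells all 4 lie between 74.4% and 77.4%.

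In DKO marrow this share was lower in monocyte-like and mature neutrophil-like cells and was not lower in T cell-like or B cell-like cells. In monocyte-like cells it was 49.4% in DKO (48.8% to 50.001%), 59.7% in TKO, 58.9% in IL-6 KO and 57.9% in TWT (56.8% to 59.0%). Mature neutrophil-like cells had 48.1% in DKO (46.0% to 50.1%), 63.2% in TKO, 63.4% in IL-6 KO and 61.2% in TWT (58.8% to 63.6%). The 3 other libraries lay close together in either class, and the interval of DKO overlapped none of theirs. Non-classical monocyte-like cells had 53.1% in DKO, 64.1% in TKO, 57.7% in IL-6 KO and 68.5% in TWT, but the IL-6 KO and TWT values rest on 45 and 28 cells. Macrophage-like cells had fewer immune than constitutive catalytic UMIs in DKO (293 and 380). They had more in TKO (13 and 8), IL-6 KO (28 and 18) and TWT (27 and 22), from few UMIs. Stem and progenitor-like cells had more immune UMIs in each library (127 and 83 in DKO, 285 and 169 in TKO, 263 and 197 in IL-6 KO, 249 and 200 in TWT). T cell-like cells had 77.4% in DKO, 75.0% in TKO, 74.4% in IL-6 KO and 75.9% in TWT. B cell-like cells had 70.0% in DKO, 65.0% in TKO, 65.7% in IL-6 KO and 67.3% in TWT. Among immature cells the libraries were closer, with 36.0% in DKO, 40.9% in TKO, 41.5% in IL-6 KO and 39.9% in TWT for granulocyte-monocyte progenitor-like cells, and 38.3%, 41.3%, 41.7% and 39.7% for immature neutrophil-like cells.

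The classes differed between libraries in more than the genotype, and these values stand beside the shares; their part in the result was not tested. In DKO, 16.9% of monocyte-like cells were dividing (2 or more of 8 division markers), against 33.9% in TKO, 31.1% in IL-6 KO and 35.1% in TWT. The monocyte-like share stood apart in DKO among cells that were not dividing (50.3% in DKO, 62.3% in TKO, 62.1% in IL-6 KO and 60.4% in TWT). It was also apart among dividing cells (47.0% in DKO, 57.1% in TKO, 55.5% in IL-6 KO and 55.1% in TWT). All 8 immature neutrophil markers were detected in the monocyte-like cells of every library, and they summed to 9643 CPM in DKO, 2627 CPM in TKO, 4735 CPM in IL-6 KO and 1635 CPM in TWT. The monocyte markers themselves summed to 5785 CPM in DKO, 8300 CPM in TKO, 8191 CPM in IL-6 KO and 8542 CPM in TWT. Only in DKO did the immature neutrophil markers have the larger sum. The macrophage markers, of which 8 of 8 were detected in DKO and TWT and 7 in TKO and IL-6 KO, summed to 559 CPM in DKO, 41.4 CPM in TKO, 29.1 CPM in IL-6 KO and 48.5 CPM in TWT. Of the mature neutrophil-like cells, 749 of 864 in DKO carried 4 or more immature markers, against 510 of 1675 in TKO, 620 of 1809 in IL-6 KO and 417 of 1471 in TWT. Within those cells the share was 48.1% in DKO, 60.7% in TKO, 59.8% in IL-6 KO and 56.0% in TWT.

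Psmb9, the immune counterpart of Psmb6, was the catalytic gene furthest below TWT in both classes. In monocyte-like cells Psmb9 had 96.6 CPM in DKO, 191 CPM in TKO, 169 CPM in IL-6 KO and 167 CPM in TWT, which put DKO at 0.578 of TWT (0.532 to 0.627). Psmb9 in mature neutrophil-like cells had 66.5 CPM in DKO, 119 CPM in TKO, 99.2 CPM in IL-6 KO and 111 CPM in TWT, or 0.599 of TWT (0.519 to 0.690). DKO was the lowest library in both classes, and the 3 others lay close together.

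Psmb8, which replaces Psmb5, had 383 CPM in DKO monocyte-like cells, 541 CPM in TKO, 412 CPM in IL-6 KO and 455 CPM in TWT (DKO over TWT 0.841, 0.802 to 0.882). Psmb10, which replaces Psmb7, had 219 CPM in DKO, 288 CPM in TKO, 226 CPM in IL-6 KO and 240 CPM in TWT (0.914, 0.857 to 0.975). These differences were small beside the range of the other libraries, with IL-6 KO nearly as low as DKO for Psmb10. Psmb8 in mature neutrophil-like cells had 119 CPM in DKO, 146 CPM in TKO, 122 CPM in IL-6 KO and 109 CPM in TWT, so that DKO lay among the others (1.09, 0.961 to 1.23). Psmb10 had 34.6 CPM in DKO, 19.2 CPM in TKO, 18.4 CPM in IL-6 KO and 19.6 CPM in TWT, highest in DKO (1.77, 1.35 to 2.33), at a level under the 50 CPM asked of a measured gene.

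Of the constitutive genes, Psmb5 had 332 CPM in DKO monocyte-like cells, 302 CPM in TKO, 238 CPM in IL-6 KO and 243 CPM in TWT (1.37, 1.29 to 1.46). Psmb6 had 274 CPM in DKO, 266 CPM in TKO, 211 CPM in IL-6 KO and 249 CPM in TWT (1.10, 1.03 to 1.17). Psmb7 went the other way, with 110 CPM in DKO, 119.7 CPM in TKO, 114 CPM in IL-6 KO and 136 CPM in TWT (0.809, 0.741 to 0.884). In mature neutrophil-like cells Psmb6 was the constitutive gene that stood out, with 86.1 CPM in DKO, 38.3 CPM in TKO, 35.2 CPM in IL-6 KO and 37.2 CPM in TWT (2.31, 1.92 to 2.80). Psmb5 had 108 CPM in DKO, 89.2 CPM in TKO, 70.5 CPM in IL-6 KO and 74.7 CPM in TWT (1.45, 1.26 to 1.67), and Psmb7 had 43.9, 38.1, 32.2 and 40.1 CPM in DKO, TKO, IL-6 KO and TWT.

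Set against its own partner, Psmb9 had the widest gap between DKO and TWT. In monocyte-like cells Psmb9 made up 26.1% of the Psmb9 and Psmb6 UMIs in DKO, against 41.8% in TKO, 44.4% in IL-6 KO and 40.2% in TWT. It made up, in mature neutrophil-like cells, 43.6% in DKO, against 75.7% in TKO, 73.8% in IL-6 KO and 74.9% in TWT. Psmb8 against Psmb5 gave 53.6% in DKO, 64.2% in TKO, 63.4% in IL-6 KO and 65.2% in TWT monocyte-like cells, and 52.4%, 62.0%, 63.3% and 59.4% in mature neutrophil-like cells. Psmb10 against Psmb7 did not follow: it gave 66.7% in DKO, 70.6% in TKO, 66.5% in IL-6 KO and 63.9% in TWT monocyte-like cells, and 44.1%, 33.4%, 36.4% and 32.8% in mature neutrophil-like cells.

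**Figure D2:**
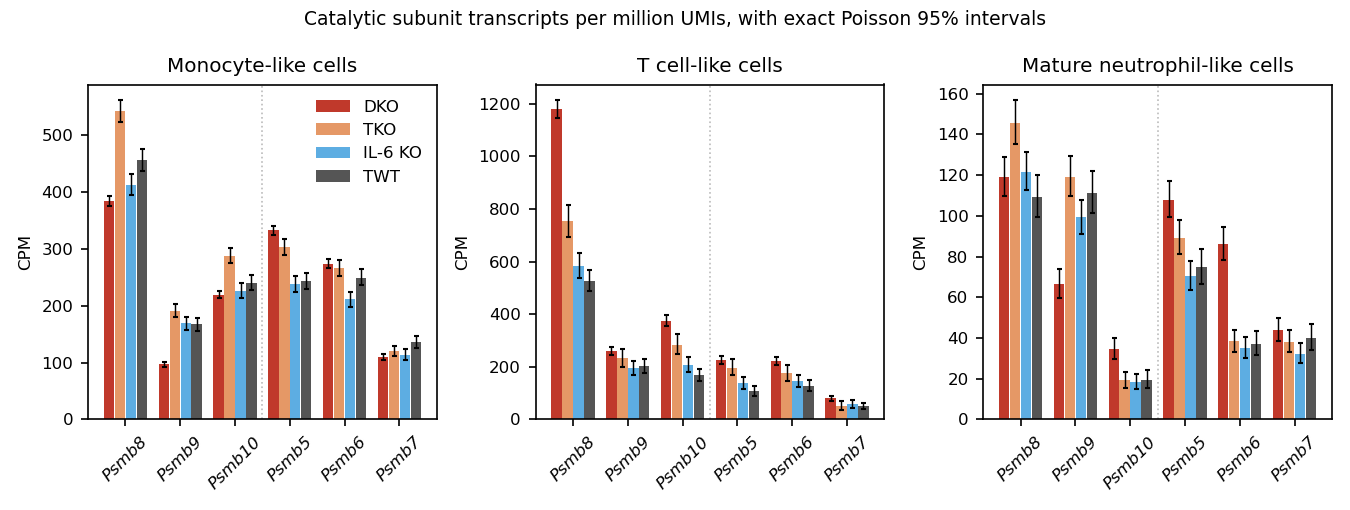
Levels of the immune (left of the dotted line) and constitutive catalytic genes (y axes, CPM from 0) in monocyte-like, T cell-like and mature neutrophil-like cells, with bars for DKO, TKO, IL-6 KO and TWT from left to right and exact Poisson 95% intervals. Psmb8 reaches 1179 CPM in DKO T cell-like cells, against 527 CPM in TWT, while Psmb9 is lowest in DKO in both myeloid classes.

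Proteasome transcripts as a whole were higher in DKO T cell-like cells. The 44 genes together came to 8347 CPM in DKO, 6518 CPM in TKO, 5134 CPM in IL-6 KO and 4961 CPM in TWT, so that DKO over TWT was 1.68 (1.64 to 1.73) and TKO over TWT was 1.31 (1.27 to 1.36). IL-6 KO over TWT was 1.03 (0.997 to 1.07). Of the 36 genes measured in T cell-like cells (those reaching 50 CPM in DKO or TWT, and 30 UMIs over the pair), 24 exceeded TWT by 1.5-fold or more in DKO and 1, Psme3, was at least 1.5-fold lower. Of all 2955 genes measured there, 16.2% were higher and 22.8% were lower by that rule. A gene under 50 CPM in 1 library of the pair was measured only by its level in the other. This favors large ratios in either direction, for proteasome genes and for all genes. The median log2 ratio was 0.70 for the proteasome genes and 0.00 for all measured genes.

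The ratio of DKO over TWT also differed by transcript length over all genes, and the part of length in the proteasome values was not tested. For T cell-like cells the median log2 ratio was 0.36 for genes under 1000 bases, 0.38 from 1000 to 2000, -0.06 from 2000 to 3000, -0.45 from 3000 to 4000 and -0.64 above. Proteasome transcripts are short, 32 of the 44 being under 2000 bases (median 1468). Of the 30 measured proteasome genes under 2000 bases, 23 were at least 1.5-fold higher in T cell-like cells and none was lower, beside 28.7% higher and 3.56% lower of all measured genes of that length. Their median log2 ratio was 0.75, against 0.37 for all such genes. In TKO against TWT the medians of T cell-like cells ran only from 0.14 for the shortest genes to 0.04 for the longest.

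**Figure D3:**
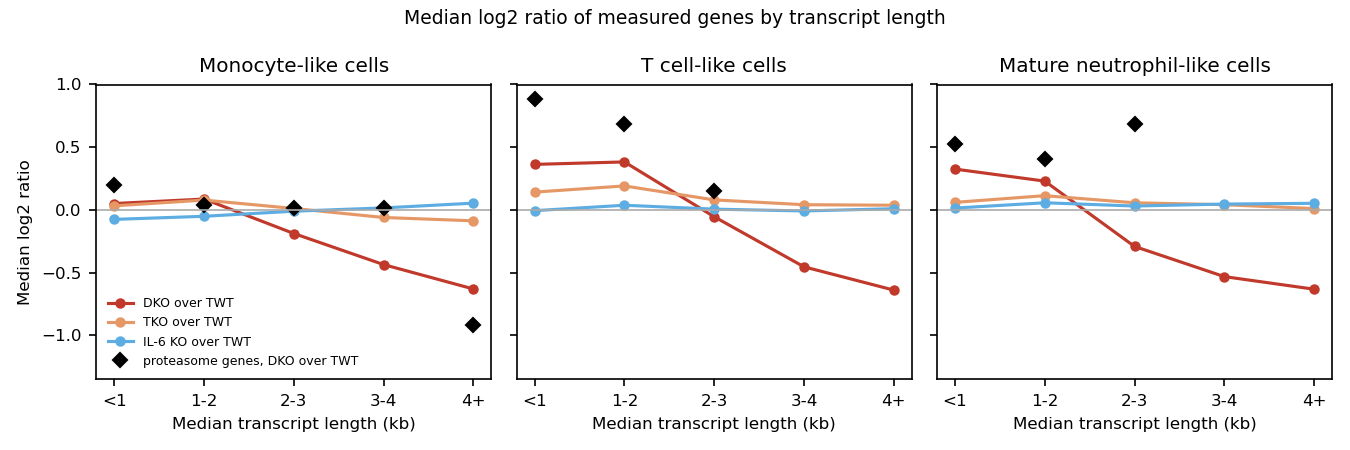
Median log2 ratio of all measured genes (y axis) by transcript length (x axis, kilobases) in 3 classes, for DKO, TKO and IL-6 KO over TWT (lines), with the proteasome genes of DKO over TWT as diamonds. In T cell-like cells the DKO line runs from 0.36 for the shortest genes to -0.64 for the longest, and the proteasome genes under 1000 bases lie above it at 0.88.

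Psmb8 was the largest in amount. Psmb8 had 1179 CPM in DKO T cell-like cells, 753 CPM in TKO, 585 CPM in IL-6 KO and 527 CPM in TWT (DKO over TWT 2.24, 2.06 to 2.43). Psmb10 had 376 CPM in DKO, 285 CPM in TKO, 208 CPM in IL-6 KO and 169 CPM in TWT (2.23, 1.93 to 2.59). Psmb9 had 261 CPM in DKO, 232 CPM in TKO, 195 CPM in IL-6 KO and 202 CPM in TWT (1.29, 1.13 to 1.49). DKO was the highest library for all 3, with TKO second, and Psmb9 differed least.

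The constitutive genes were higher too, and the immune share differed little. Psmb5 had 227 CPM in DKO T cell-like cells, 197 CPM in TKO, 139 CPM in IL-6 KO and 108 CPM in TWT (2.11, 1.75 to 2.54). Psmb6 had 223 CPM in DKO, 175 CPM in TKO, 145 CPM in IL-6 KO and 127 CPM in TWT (1.76, 1.48 to 2.09). Psmb7 had 80.1 CPM in DKO, 51.2 CPM in TKO, 57.0 CPM in IL-6 KO and 49.8 CPM in TWT (1.61, 1.22 to 2.14).

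The activators split by partner. Psme1 and Psme2 encode the alpha and beta chains of the interferon-inducible PA28 ring. Psme1 had 618 CPM in DKO T cell-like cells, 448 CPM in TKO, 345 CPM in IL-6 KO and 366 CPM in TWT (1.69, 1.53 to 1.87). Psme2 had 423 CPM in DKO, 338 CPM in TKO, 200.4 CPM in IL-6 KO and 181 CPM in TWT (2.34, 2.03 to 2.70); reads of Psme2 and its near-identical copy Psme2b may not be separable, and Psme2b itself had 18.1 CPM in DKO and 28.9 CPM in TWT. Psme3, the nuclear PA28 gamma, had 32.7 CPM in DKO, 51.2 CPM in TKO, 65.8 CPM in IL-6 KO and 61.1 CPM in TWT (0.536, 0.401 to 0.721). Psme4, the nuclear PA200, had 25.2, 42.9, 48.1 and 43.4 CPM in DKO, TKO, IL-6 KO and TWT, under the level asked of a measured gene. Both nuclear activators were lowest in DKO (transcripts of 2664 bases for Psme3 and 6491 for Psme4). Psmf1, an inhibitor of the core, had 27.7, 13.1, 22.6 and 17.7 CPM.

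By subcomplex, the summed level of DKO over TWT in T cell-like cells was 2.02 for the immune catalytic genes, 1.91 for PA28 alpha and beta, 1.86 for the constitutive catalytic genes, 1.69 for the structural beta subunits, 1.63 for the alpha ring, 1.57 for the lid, 1.43 for the ATPases, 1.14 for the other base subunits and 0.554 for PA28 gamma with PA200. The measured genes with the highest log2 ratios were Psmb2, a structural beta subunit (1.25; 223 CPM in DKO, 143 CPM in TKO, 93.3 CPM in IL-6 KO and 93.3 CPM in TWT), Psme2 (1.22) and Psmb8 (1.16). The lowest measured genes were Psme3 (-0.88), the base subunit Psmd2 (-0.06) and the ATPase Psmc1 (0.08).

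The T cell-like class did not hold the same cells in each library. Of its cells, 720 of 935 were CD8 cells in DKO, against 81 of 197 in TKO, 106 of 244 in IL-6 KO and 123 of 317 in TWT. Among CD8 cells alone the summed level was 8426 CPM in DKO, 6547 CPM in TKO, 4938 CPM in IL-6 KO and 4651 CPM in TWT, at least as far apart as in the whole class. Markers of other classes were present in all 4 libraries: the monocyte markers summed to 1871 CPM in DKO, 1591 CPM in TKO, 1019.6 CPM in IL-6 KO and 1039.5 CPM in TWT T cell-like cells, all 8 being detected, and the part of this signal in the result was not tested.

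**Figure D4:**
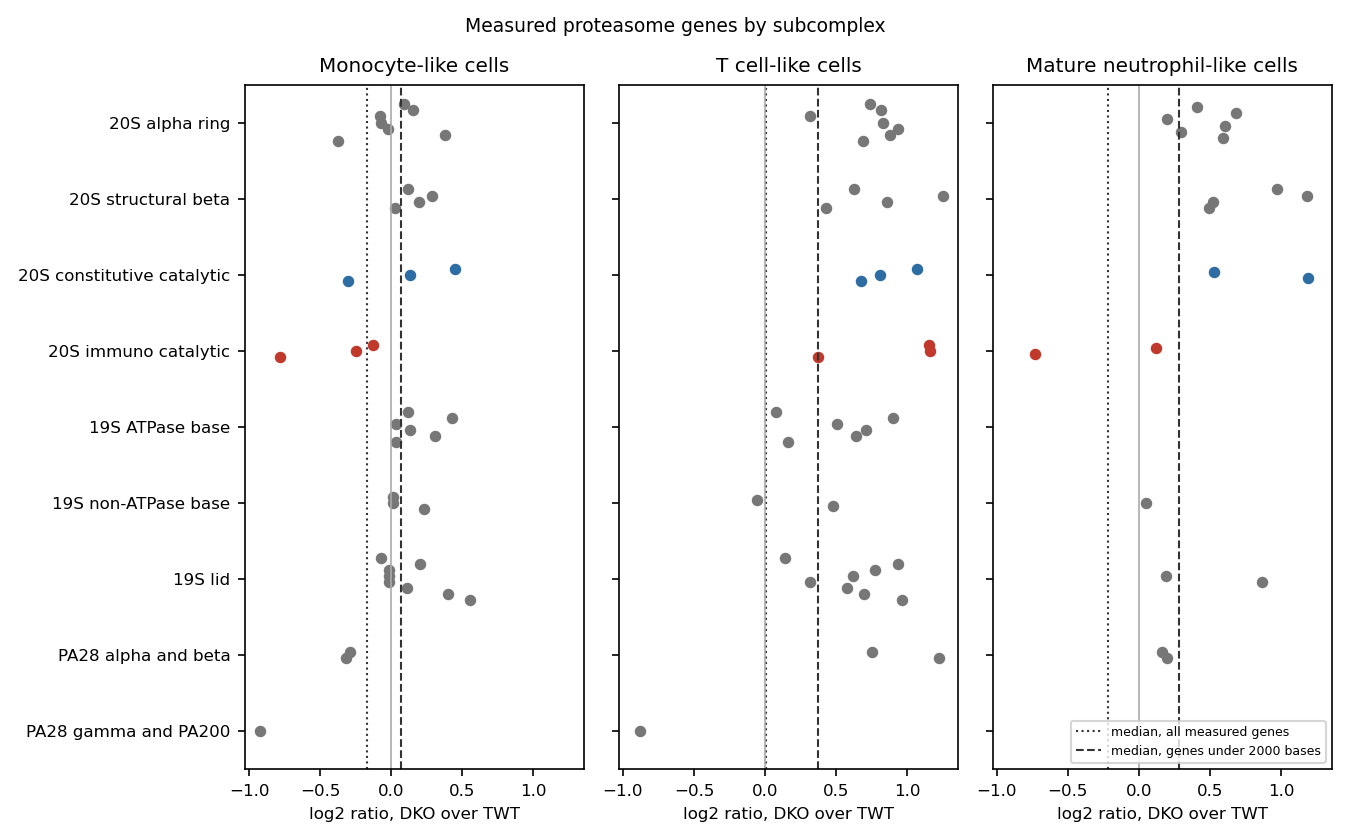
log2 ratio of DKO over TWT (x axis) for each measured proteasome gene (points), by subcomplex (rows), in 3 classes; the dotted line is the median of all measured genes and the dashed line that of genes with transcripts under 2000 bases. In T cell-like cells the points lie mostly right of both lines (median 0.70), and in monocyte-like cells they gather at 0.04, with the immune catalytic genes to the left.

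In monocyte-like cells the amount of proteasome transcripts was about the same in DKO and TWT while its makeup differed. The summed level was 7948 CPM in DKO, 8539 CPM in TKO, 7081 CPM in IL-6 KO and 7885 CPM in TWT, and DKO over TWT was 1.01 (0.997 to 1.02). Of 37 measured genes none was at least 1.5-fold higher in DKO, beside 8.35% of all 3186 measured genes, and 2, Psmb9 and Psme4, were at least 1.5-fold lower, beside 25.8%. The median log2 ratio was 0.04, against -0.17 for all genes. Of the 30 under 2000 bases none was higher and 1 was lower, beside 12.1% and 9.9% of all genes of that length. The immune catalytic genes and PA28 alpha and beta were each at 0.810 of TWT, the alpha ring was at 0.935, and the lid (1.18), the constitutive catalytic genes (1.14), the ATPases (1.12) and the structural beta subunits (1.12) were above TWT.

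Psme1 had 245 CPM in DKO monocyte-like cells, 348 CPM in TKO, 293 CPM in IL-6 KO and 300.1 CPM in TWT (0.815, 0.769 to 0.865). Psme2 had 173 CPM in DKO, 278 CPM in TKO, 195 CPM in IL-6 KO and 215 CPM in TWT (0.802, 0.748 to 0.860). Both interferon-inducible chains were lowest in DKO and highest in TKO. Psme4 had 31.2 CPM in DKO, 57.5 CPM in TKO, 60.0 CPM in IL-6 KO and 60.0 CPM in TWT (0.520, 0.452 to 0.599), Psme3 had 27.7, 39.3, 42.0 and 43.4 CPM, and Psmf1 had 17.6, 13.2, 15.5 and 18.0 CPM.

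The measured gene with the highest ratio in monocyte-like cells was Psmd8, a lid subunit, with 412 CPM in DKO, 297 CPM in TKO, 244 CPM in IL-6 KO and 280.3 CPM in TWT (1.47, 1.39 to 1.56). Next came Psmb5 and the ATPase Psmc2, which had 102 CPM in DKO, 94.8 CPM in TKO, 72.1 CPM in IL-6 KO and 75.7 CPM in TWT (1.35, 1.21 to 1.51). Below Psme4 and Psmb9, the lowest measured gene was Psma7, with 768 CPM in DKO, 1012 CPM in TKO, 911 CPM in IL-6 KO and 996 CPM in TWT (0.771, 0.747 to 0.796). Psma7, the most abundant gene of the group, was thus lower in DKO monocyte-like cells and higher in DKO T cell-like cells.

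In mature neutrophil-like cells, which had the least proteasome transcript of the 6 classes for which members were counted, the summed level was 2935 CPM in DKO, 2166 CPM in TKO, 1882 CPM in IL-6 KO and 2099.7 CPM in TWT (DKO over TWT 1.40, 1.36 to 1.44). Only 19 genes were measured there. Of these, 7 were at least 1.5-fold higher in DKO and 1, Psmb9, was lower, beside 16.6% and 30.7% of all 2282 measured genes. The count of 7 depended on the scaling and the filter: it was 4 with the mean of each cell's CPM, 11 by median of ratios, 13 without genes above 1% of UMIs and 22 with no minimum CPM. Among the 18 under 2000 bases, 6 were higher (33.3%) and 1 was lower, beside 30.8% and 11.5% of all genes of that length, so that the share of higher genes was close to that of other short genes. The median log2 ratio was 0.50, against -0.22 for all genes and 0.28 for genes under 2000 bases.

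After Psmb6, the highest ratios of measured genes in mature neutrophil-like cells were those of the structural beta subunits. Psmb6 and Psmb2 were under 50 CPM in TWT and counted as measured by their DKO level alone, which favors high ratios. Psmb2 had 106 CPM in DKO, 44.8 CPM in TKO, 38.0 CPM in IL-6 KO and 45.9 CPM in TWT (2.30, 1.95 to 2.73). Psmb1 had 155 CPM in DKO, 88.3 CPM in TKO, 88.2 CPM in IL-6 KO and 78.8 CPM in TWT (1.97, 1.73 to 2.25). For both, DKO stood above 3 libraries that lay together. After Psmb9 the lowest measured genes were the ubiquitin receptor Psmd4 (log2 ratio 0.05; 78.9, 72.1, 67.4 and 76.3 CPM in DKO, TKO, IL-6 KO and TWT) and Psmb8 (0.12). Psme1 had 106, 100.5, 92.3 and 94.5 CPM and Psme2 had 79.3, 76.2, 54.5 and 68.9 CPM, with DKO at the upper end of both. Psme3 had 23.02, 19.3, 17.9 and 23.2 CPM, Psme4 had 22.6, 41.3, 40.2 and 49.5 CPM, and Psmf1 had 8.51, 4.94, 3.91 and 3.14 CPM. The immature neutrophil markers, all 8 detected in each library, summed to 29311 CPM in DKO mature neutrophil-like cells, against 6482 CPM in TKO, 8399 CPM in IL-6 KO and 6059 CPM in TWT, and their part in the result was not tested.

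**Figure D5:**
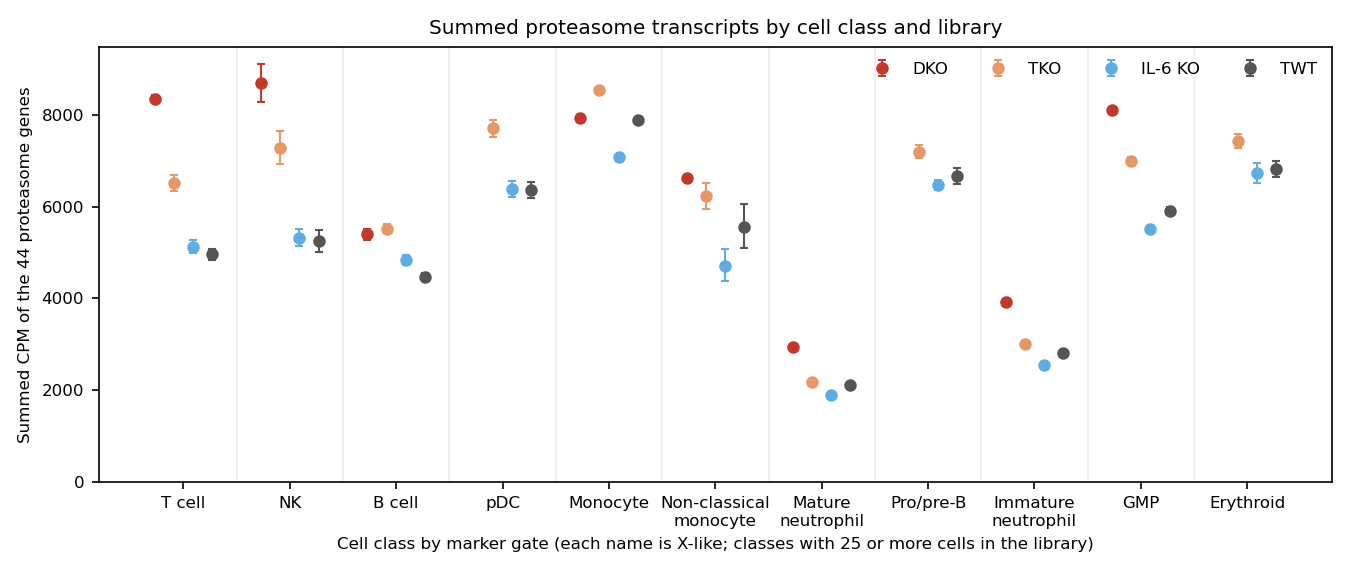
Summed level of the 44 proteasome genes (y axis, CPM from 0) in marker-gated classes with 25 or more cells in the library (x axis), for DKO, TKO, IL-6 KO and TWT from left to right; bars are exact Poisson 95% intervals. In T cell-like cells DKO sits at 8347 CPM above TWT at 4961 CPM, and in monocyte-like cells the 4 libraries lie between 7081 and 8539 CPM.

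Immature neutrophil-like cells had a summed level of 3927 CPM in DKO, 2999.5 CPM in TKO, 2555 CPM in IL-6 KO and 2816 CPM in TWT (DKO over TWT 1.39). Of 30 measured genes 11 were at least 1.5-fold higher in DKO, beside 14.8% of all measured genes. All 11 were among the 26 under 2000 bases, beside 25.7% of genes of that length. Among measured genes the highest log2 ratios were those of Psmc2 (0.999), Psmd8 (0.97) and Psmb2 (0.93), and the lowest those of Psmb9 (-0.17), Psmb7 (-0.0043) and Psmd2 (0.03). Psmb8 had 129.5 CPM in DKO, 95.6 CPM in TKO, 80.6 CPM in IL-6 KO and 80.4 CPM in TWT immature neutrophil-like cells (1.61, 1.52 to 1.71).

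Granulocyte-monocyte progenitor-like cells, nearly all dividing, had 8103 CPM in DKO, 6997 CPM in TKO, 5505 CPM in IL-6 KO and 5914 CPM in TWT (1.37). Of 36 measured genes 7 were at least 1.5-fold higher in DKO, beside 9.82% of all, and the same 7 of 29 under 2000 bases, beside 13.2%. Among measured genes the highest log2 ratios were those of Psmd8 (0.83), Psmb2 (0.82) and Psmb5 (0.80), and the lowest those of Psmd2 (-0.41), Psmb9 (-0.37) and Psmb7 (-0.27). Psmb5 had 567 CPM in DKO, 439 CPM in TKO, 332 CPM in IL-6 KO and 326 CPM in TWT granulocyte-monocyte progenitor-like cells, above Psmb8 in each library (333, 299, 214 and 206 CPM).

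B cell-like cells had 5396 CPM in DKO, 5524 CPM in TKO, 4838 CPM in IL-6 KO and 4472 CPM in TWT (1.21), with TKO the highest. Of 34 measured genes 4 were at least 1.5-fold higher in DKO, beside 8.23% of all, and all 4 were among 28 under 2000 bases, beside 15.5% of genes of that length. Among measured genes the highest log2 ratios were those of Psmd8 (1.03), Psmc2 (0.82) and Psmb8 (0.66), and the lowest those of Psme3 (-0.88), Psmd2 (-0.45) and Psmd3 (-0.28), the last a lid subunit. NK-like cells, 42 in DKO and 81 in TWT, had 8702 CPM in DKO, 7282 CPM in TKO, 5323 CPM in IL-6 KO and 5253 CPM in TWT. Macrophage-like cells, 103 in DKO and 26 in TWT, had 8308.5 CPM in DKO, 4950 CPM in TKO, 4446 CPM in IL-6 KO and 4574 CPM in TWT, and DKO over TWT was 1.82 (1.61 to 2.06). Mature neutrophil markers summed to 229 CPM in DKO macrophage-like cells, 10240 CPM in TKO, 1584 CPM in IL-6 KO and 11071 CPM in TWT. S100a8 and S100a9 together had 2259, 72813, 18884 and 69354 CPM in the same order. The part of this signal in the ratio was not tested. Psmd8 was at least 1.5-fold higher in DKO in 5 of the 6 classes for which members were counted, and Psmb2, Psmc2 and Psmb8 in 4. The share of all genes that reached 1.5-fold in as many classes is not given. All 6 comparisons use the same DKO and TWT libraries, so this recurrence cannot be read as particular to these genes. Of the 19 genes measured in all 6 classes, 10 were above TWT in all 6, beside 29.7% of all 1043 genes measured in all 6. Among those under 2000 bases it was 9 of 18, beside 43.8%, so that the share was near that of other short genes.

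DKO and TKO differ by label in the Il6 locus, but with 1 library each the genotype, the mice and the makeup of a class cannot be told apart. The comparison shares the DKO library with those above. In T cell-like cells DKO over TKO was 1.28 (1.24 to 1.32) for the summed level. Of 37 measured genes 4 exceeded TKO by 1.5-fold or more in DKO (Psmb7, Psmb2, Psma2 and Psmb8) and 1, Psme3, was lower, beside 6.58% and 23.1% of all genes. TKO itself lay above TWT, with 8 of 36 genes at least 1.5-fold higher, beside 7.24% of all. In monocyte-like cells DKO over TKO was 0.931 (0.921 to 0.940); none of 37 was higher and 3 were lower (Psmb9 at 0.507, Psme4 at 0.542 and Psme2 at 0.621), beside 8.16% and 23.2%. TKO over TWT was 1.08 there, with no gene of 37 past 1.5-fold higher, beside 1.2% of all. In mature neutrophil-like cells DKO over TKO was 1.36 (1.32 to 1.39); 7 of 19 were higher and 1, Psmb9 at 0.558, was lower, beside 15.2% and 31.8%. TKO over TWT was 1.03 there, with none of 16 higher, beside 1.33% of all.

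Genes that work with the proteasome were read from lists of 5 kinds, of so few genes that a count says little beside the shares of all measured genes (16.2% higher and 22.8% lower in T cell-like cells, 8.35% and 25.8% in monocyte-like cells). Of the 3 measured assembly and further-subunit genes in T cell-like cells 1 exceeded TWT by 1.5-fold or more in DKO (median log2 ratio 0.54), and of 4 in monocyte-like cells none was higher or lower (median -0.15). Pomp, the chaperone that helps new cores mature, had 437 CPM in DKO, 606 CPM in TKO, 464 CPM in IL-6 KO and 527 CPM in TWT monocyte-like cells (0.829). Pomp in mature neutrophil-like cells had 194 CPM in DKO, 89.8 CPM in TKO, 96.2 CPM in IL-6 KO and 76.3 CPM in TWT (2.54). The assembly chaperone Psmg4 was at 0.735 and the ubiquitin receptor Adrm1 at 1.19 of TWT in monocyte-like cells.

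Ubiquitin and deubiquitinase genes are given by the members described here. The polyubiquitin gene Ubb had 1792 CPM in DKO, 1851 CPM in TKO, 1834 CPM in IL-6 KO and 1752 CPM in TWT monocyte-like cells, and hardly differed. Rps27a, a fusion of ubiquitin with a ribosomal protein, was at 1.199 of TWT, and the deubiquitinases Usp14 and Uchl5 at 0.98 and 0.717.

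Of 4 measured genes for transcription factors of proteasome genes and p97 in monocyte-like cells 1 was higher and 1 was lower (median -0.14, against -0.17 for all genes), and of 2 in T cell-like cells 1 was higher (median 0.11). Nfe2l2, the factor of the antioxidant response, had 135 CPM in DKO, 80.2 CPM in TKO, 78.3 CPM in IL-6 KO and 89.7 CPM in TWT monocyte-like cells (1.51). Ddi2, the protease that activates Nfe2l1, had 69.6 CPM in DKO, 100.3 CPM in TKO, 113 CPM in IL-6 KO and 129.7 CPM in TWT (0.537). Vcp, the p97 unfoldase, had 164, 207, 196 and 224 CPM, and its cofactors Ufd1 and Nploc4 were at 1.13 and 0.570 of TWT. Nfe2l1, which drives proteasome genes when the enzyme is short, was at 0.812.

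The peptide-loading genes carry proteasome products to MHC class I. Of 10 measured peptide-loading genes in monocyte-like cells none was higher and 4 were lower in DKO than in TWT, beside 8.35% and 25.8% of all genes, and their median of -0.21 was close to the -0.17 of all genes. Among the 4 were the MHC gene H2-T23 (76.1 CPM in DKO, 154 CPM in TKO, 216 CPM in IL-6 KO and 209 CPM in TWT), the transporter gene Tap1 (46.5, 124, 92.1 and 112 CPM) and its bridging partner Tapbp (90.5, 209, 184 and 198 CPM). The classical class I genes were not among them: H2-D1 was at 1.40 and H2-K1 at 1.31 of TWT. All 14 were measured in T cell-like cells, where 1 was higher and 2 were lower, beside 16.2% and 22.8% of all genes (median 0.10), and Tap1 had 183, 205, 135 and 171 CPM.

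Of 4 measured interferon genes in monocyte-like cells 1 was higher and 2 were lower (median -0.69), beside 8.35% and 25.8% of all genes. Irf8, a factor of the monocyte lineage, had 163 CPM in DKO, 611 CPM in TKO, 558 CPM in IL-6 KO and 462 CPM in TWT. The receptor gene Ifngr1 had 775, 353, 319.95 and 361 CPM. Among T cell-like cells 9 were measured, 5 were higher and none was lower (median 0.60), beside 16.2% higher and 22.8% lower of all genes and their median of 0.00. Ifit3 had 73.5 CPM in DKO, 23.8 CPM in TKO, 8.84 CPM in IL-6 KO and 8.04 CPM in TWT (9.15, 4.90 to 19.3), and Isg15 had 68.7, 41.7, 6.88 and 12.1 CPM. Both were highest in DKO, with TKO next. In TWT both were under the level asked of a measured gene, so they counted as measured by their DKO level alone. This favors high ratios, and both genes were named after their values were seen. The count of 5 and the median of 0.60 include them, and the part of this rule in those values was not tested.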

How the data were processed

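Single-cell RNA of 4 mouse bone marrow libraries, 1 per genotype, was read from matrices of raw UMI counts per gene and cell, which the authors deposited after alignment to mm10 and counting with Cell Ranger (3.0.2 in the matrix header); the submitters' notes also name Seurat 4. The study's filter was applied to cells (500 to 4000 genes detected, no more than 15% of UMIs mitochondrial). Classes were rebuilt from marker panels (at least 3 detected markers), since no cell annotation was used here, and may differ from the study's clusters. Counts were summed per class and library (Python 3.11.15, numpy 2.4.6, scipy 1.17.1, pandas 2.3.3, matplotlib 3.10.9; scanpy 1.11.5 for doublet scores). Doublets were not removed: Scrublet called 1 of 9627 DKO cells and was not usable there. log2 ratios used a pseudocount of 1 CPM. The members and lists were chosen with earlier results of these data known. Named genes are the catalytic, activator, inhibitor and tissue-restricted members, the 3 highest and 3 lowest ratios per class, the 3 most abundant members, and up to 3 genes per further list (all genes of lists of 6); H2-D1, H2-K1, Isg15, Ifit3 and Tap1 in T cell-like cells, Pomp in mature neutrophil-like cells and the genes past 1.5-fold between DKO and TKO were named after their values were seen. Transcript length is the median over basic protein-coding transcripts of GENCODE M21, and genes without one (all but 21823) are in no length bin. Paaf1 was not used, and some genes and 1 motif of the lists are not reported here. The computation was tested on simulated data.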

Additional observations from a re-analysis of the deposited data

Results flagged for a closer look

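Among the catalytic, activator and inhibitor genes, to which this comparison was limited, the difference between DKO and TWT went opposite ways in monocyte-like and T cell-like cells for 6, with counting intervals on either side of 1. The difference between the classes was not tested, since each genotype has 1 library. The share of all measured genes that went opposite ways is not given, so the count of 6 has nothing to be read against. Scaling by median of ratios reversed the direction of Psmb10 in monocyte-like cells. Psmb8 was at 0.841 of TWT in monocyte-like cells and at 2.24 in T cell-like cells. Psmb9 was at 0.578 and 1.29, and Psmb10 at 0.914 and 2.23. Psmb7, the constitutive subunit, was at 0.809 and 1.61. The activator genes Psme1 and Psme2 were at 0.815 and 0.802 in monocyte-like cells and at 1.69 and 2.34 in T cell-like cells.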

How the results depend on the processing

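No paired analysis was possible because each genotype has 1 library, and no replicate could be left out for the same reason. Of 90 values of the main results under the alternatives, 66 stayed within the counting interval or within 1.5 times the count and 24 moved. Removal of called doublets was not run because the caller marked 1 DKO cell; removal of the highest 8% of scores, chosen after seeing the data, took its place. In monocyte-like cells the difference in immune share (DKO minus TWT, main value -8.49 points) was -10.0 without dividing cells. The log2 ratio of the summed level (0.01) was -0.012 with 200 detected genes as the only filter, -0.011 with cells thinned to 2000 UMIs, -0.014 with the mean of each cell's CPM, 0.050 without dividing cells, 0.18 by median of ratios and -0.13 over the total of genes under 2000 bases. The count of higher genes (0) was 1 without dividing cells and 3 by median of ratios. In T cell-like cells the log2 ratio (0.75) was 0.69 without genes above 1% of UMIs, 0.57 over the total of genes under 2000 bases and 0.86 in CD8 cells. In mature neutrophil-like cells the share difference (-13.2) was -9.01 as the mean of the pair shares and -7.94 in cells with 4 or more immature markers. The log2 ratio (0.48) was 0.32 without the highest doublet scores, 0.32 with the mean of each cell's CPM, 0.71 by median of ratios, 0.34 over the total of genes under 2000 bases and 0.62 in cells with 4 or more immature markers. The count (7) was 4 with the mean of each cell's CPM, 13 without genes above 1% of UMIs, 11 by median of ratios, 22 with no minimum CPM and 11 in cells with 4 or more immature markers. Of 192 values of single catalytic genes, 26 moved and 2 reversed, both in monocyte-like cells: the log2 ratio of Psmb10 was 0.042 by median of ratios and that of Psmb6 was -0.0052 over the total of genes under 2000 bases. The total over short genes, the immature-marker and the CD8 alternatives were chosen after seeing the data, and the cause of these shifts was not tested.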
